A study of Mus musculus with 12 samples.

Results

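Early CMDMs, the CCR2-dependent monocyte-derived macrophages that still carry Ly6C, were compared with classical monocytes of the same inflamed skin in bulk RNA-seq. The comparison takes the 3 libraries of the fraction called Early CMDM (Ly6Chi PD-L2hi) and the 3 of the fraction called Classical mono (Ly6Chi PD-L2lo) by their labels, which is 6 of the 12 libraries of the series, and covers all genes. Every library came from WT BALB/c mice, with no gene deleted in either fraction. The mice received 300 μg of anti-TNP IgE intravenously and 10 μg of TNP-conjugated ovalbumin in the ear a day later, which elicits IgE-mediated chronic allergic inflammation (IgE-CAI), and the ears were taken on day 5. Both fractions were sorted by FACS as CD45+ CD11b+ SiglecF- Ly6G- cells and parted by surface Ly6C and PD-L2, and mRNA was captured with oligo(dT) from between 5000 and 80000 cells. The other 6 libraries, of late CMDMs (Ly6Clo PD-L2hi) and resident-like macrophages (Ly6Clo PD-L2lo), entered the same fit and are quoted only to place a gene. The labels number the libraries 1 to 3 and do not say whether they came from separate animals, so that p-values measure the spread between these libraries.

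Classical monocytes depend on CCR2 to reach the inflamed skin, carry high Ly6C, and can lose Ly6C there as they turn into macrophages. IL-4, made by basophils and other cells in allergic skin, acts through a receptor of IL-4Rα and the common γ chain, or IL-4Rα and IL-13Rα1, and activates the transcription factor STAT6. STAT6 induces PD-L2, RELMα and arginase 1, the genes of alternative macrophage activation, and macrophages of this kind clear dead cells and dampen inflammation.

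Total counts were close in both fractions, from 15400638 to 17599360 in the classical monocyte libraries and from 15396187 to 15487385 in the early CMDM libraries. Levels are given as CPM, counts scaled to library size after TMM normalization, and 3 counts, the most that a count of 0 leaves possible, corresponded to 0.165 to 0.190 CPM on this scale (counting error only, since the reads carry no molecular identifiers and may repeat a molecule). Of 37775 genes, 22118 passed the expression filter and were tested with the quasi-likelihood test of edgeR. A gene is called changed at an adjusted p (Benjamini-Hochberg) under 0.05, and log2 fold changes are early CMDM minus classical monocyte with their standard error (SE), n = 3 libraries per fraction. 44.9% of the genes tested were called, 24.2% higher (5363 genes) and 20.6% lower (4562 genes) in early CMDMs. Of the genes called, 9585 had no overlap between the libraries of both fractions, 2518 were at least 2-fold higher and 1909 at least 2-fold lower. The median log2 fold change over all genes tested was -0.01.

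The sort used surface Ly6C and PD-L2, so that the transcripts of both proteins are tied to how the cells were chosen and check the labels. Ly6c2, one of the genes for Ly6C (chromosome 15, 75108158 to 75111970, minus strand, GRCm38), was at 607, 490 and 380 CPM in classical monocytes and at 53.6, 44.1 and 50.2 CPM in early CMDMs. All early CMDM libraries lay far below all classical monocyte libraries, although both gates were Ly6Chi, and the log2 fold change was -3.32 ± 0.16 (adjusted p = 5.35e-10, edgeR). In late CMDMs, a Ly6Clo gate, Ly6c2 averaged 19.1 CPM. The neighbouring copy Ly6c1 moved the same way, by -2.34 ± 0.18, and reads of this pair may be split by the counting. Pdcd1lg2, which encodes PD-L2, was at 13.2, 13.1 and 16.2 CPM in classical monocytes and at 21.3, 20.05 and 22.7 CPM in early CMDMs. The fractions did not overlap in Pdcd1lg2, the log2 fold change was 0.59 ± 0.13 (adjusted p = 0.00168, edgeR), and late CMDMs were higher still, with a mean of 32.2 CPM. The PD-L2 transcript was thus ordered as the gate was, while in Ly6c2 the early CMDM libraries lay nearer to the Ly6Clo fractions than to classical monocytes.

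The promoter of Pdcd1lg2 is shown because it holds the letters TTCNNNNGAA, the arrangement that STAT6 prefers. RefSeq gives 100 bases upstream of its start at chr19:29410792-29410891 on the plus strand of GRCm38.p6, where the capitals mark the match, whose first base lies 82 bases before the start.
Pdcd1lg2: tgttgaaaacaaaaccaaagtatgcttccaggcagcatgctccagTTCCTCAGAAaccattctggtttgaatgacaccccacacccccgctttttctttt

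The other markers of the sort differed too. Ptprc, which encodes CD45, was at 742, 768 and 668 CPM in classical monocytes and at 113, 96.8 and 133 CPM in early CMDMs, with a change of -2.67 ± 0.13 in log2 units (adjusted p = 3.36e-10, edgeR). The lowest classical monocyte library stood above every early CMDM library, and above the resident-like macrophages, which averaged 427 CPM. Itgam, which encodes CD11b, fell by 1.15 on the log2 scale (SE 0.18) under TMM, but rose by 0.65 on the leukocyte scale, which divides each library by its summed counts of 15 pan-leukocyte genes. Siglecf was near the counting limit, with means of 0.193 and 0.168 CPM, and Ly6g had 7, 3 and 3 counts in classical monocytes and 0 in every other library.

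The fall in Ptprc was shared by genes that all leukocytes use. Of 15 pan-leukocyte genes (among them Ptprc, Coro1a, Cytip and Laptm5, which build the cortical cytoskeleton and the signalling machinery of blood cells) all 15 were lower in early CMDMs, with log2 fold changes from -2.74 to -0.80 and a median of -1.73. Their summed level was 1385 to 2168 CPM in early CMDMs and 5692 to 6217 CPM in classical monocytes. The mononuclear phagocyte genes Spi1, Csf1r, Tyrobp, Cd14, Lyz2, Mpeg1, Cybb and 5 others, a list chosen after values were seen, had a median of -0.84, with 8 of 12 lower, 4 not called and 0 higher, while on the leukocyte scale 7 were higher and 2 lower (median 0.95). Csf1r, the receptor for the growth factor of macrophages, was at 302, 349 and 535 CPM in classical monocytes and 385, 291 and 498 CPM in early CMDMs, and the fractions overlapped. In bulk libraries, fewer cells of a type and less RNA per cell cannot be told apart.

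Because the pan-leukocyte genes fell together, the gene lists are given under TMM and on the leukocyte scale, with values under TMM unless the other is named. TMM assumes that most genes do not change, and so leaves the median gene near 0. The leukocyte scale gives each gene relative to these 15, and it shifts the median gene by 1.84 on the log2 scale. Of the calls, 54.04% were higher under TMM and 97.92% (20353 higher, 432 lower) on the leukocyte scale. As 20353 of all 22118 genes tested were higher on the leukocyte scale, the count of a list there is read against that share. All 5363 genes higher under TMM were also called higher on the leukocyte scale, which its upward shift settled in advance. Of the 4562 lower ones, 432 remained lower and 3169 were called higher. A change on the leukocyte scale is therefore read against a median of 1.82 over all genes tested, and it carries the epidermal and stromal transcripts upwards with everything else.

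Markers of cells that the gate should leave out were higher in early CMDMs. All 18 keratinocyte genes were higher, with a median log2 fold change of 2.90, and so were all 13 cornified envelope genes tested of 16 listed (median 3.16). Krt10, a keratin of the upper epidermis, was at 1310, 1813 and 834 CPM in classical monocytes and at 11677, 13873 and 8202 CPM in early CMDMs, an increase of 3.09 ± 0.25 (adjusted p = 1.37e-07, edgeR). The summed level of the keratinocyte list was 24364 to 38507 CPM in early CMDMs, 2700.2 to 5819 CPM in classical monocytes, 4710.5 to 5756 CPM in late CMDMs and 3519 to 4058 CPM in resident-like macrophages. The early CMDM libraries thus stood apart from all other 9 libraries in epidermal transcripts. Among the largest rises of all genes with at least 5 CPM in the higher fraction were the epidermal genes Flg2 (3.96), Cnfn (3.84), Alox12b (3.77) and Slurp2 (3.64), all of which fell again from early to late CMDMs, by between 3.08 and 3.45 on the log2 scale. Rgs5, a pericyte gene, rose by 3.90 (SE 0.69), and 7 of 9 mural cell genes, a list chosen after values were seen, were higher and 1 lower, with a summed level of 89.5 to 99.5 CPM against 27.0 to 37.9 CPM. Of 10 endothelial genes 7 were higher and 1 lower (median 1.64), and of 6 lymphatic endothelial genes 5 were higher (median 1.84), with Mmrn1, Flt4 and Ccl21a rising further in late CMDMs (reads of Ccl21a may be split among its copies). Under TMM fibroblast genes did not follow this pattern, with 0 of 14 higher, 2 lower and a median of -0.29, although on the leukocyte scale all 14 were higher (median 1.58, against 1.82 over all genes). Both fractions compared held much fibroblast RNA, with sums of 3590 to 5030 CPM in early CMDMs and 3819 to 6677 CPM in classical monocytes. The sums were 624 to 671 CPM in late CMDMs and 343 to 456 CPM in resident-like macrophages. Col1a1, the main collagen of the dermis, overlapped between the fractions, but was called lower under TMM without classical monocyte library 3 (-0.39). On the leukocyte scale all keratinocyte, cornified envelope, endothelial and lymphatic endothelial genes tested were higher, and 8 of 9 mural cell genes.

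Markers of lymphocytes and of plasmacytoid dendritic cells moved the other way, on the leukocyte scale too, where 11 T cell genes, 30 T cell receptor segments, 7 NK and innate lymphoid genes and 9 plasmacytoid dendritic cell genes were lower. Of 14 T cell genes 13 were lower in early CMDMs, with 0 higher and a median of -2.68, and Cd8a, the α chain of the CD8 co-receptor, stood at 52.0, 38.8 and 43.1 CPM in classical monocytes against 2.35, 2.02 and 1.84 CPM. Of 35 T cell receptor segments tested 34 were lower (median -4.61), although near-identical segments share reads. Of 10 NK and innate lymphoid genes 7 were lower and 2 higher (median -3.95), Klrd1, an NK receptor chain, falling by 5.14 and Gzma, which encodes granzyme A, by 4.87 on the log2 scale. Ifng, which encodes interferon-γ, had 3, 2 and 2 counts in early CMDMs against 134, 63 and 76 in classical monocytes, a ratio of pooled counts per effective library size of 35.6 (exact 95% interval 17.0 to 89.3, counting error only). Gata3, on the same list but also an epidermal transcription factor, rose by 2.12. Of 6 immunoglobulin segments 5 were lower and 1 higher. All 10 genes of a plasmacytoid dendritic cell list, chosen after values were seen, were lower (median -4.31). Siglech, a surface lectin of these cells, was at 395, 209 and 276 CPM in classical monocytes and at 14.5, 12.6 and 13.8 CPM in early CMDMs, and Spib, their ETS transcription factor, was at 526, 225 and 344 CPM and at 10.5, 9.99 and 11.7 CPM. Siglech, Spib, Ccr9 and Klk1 did not overlap between the fractions, and in each of them classical monocyte library 1 was the highest (Klk1 shares reads with its family of close copies). Mzb1, a chaperone of antibody-secreting and plasmacytoid dendritic cells, had 2, 3 and 3 counts in early CMDMs against 287, 172 and 223, a ratio of 77.8 (39.3 to 181, by the same measure). Of 9 conventional dendritic cell genes 8 were lower (median -1.64), led by Clec9a (-4.22) and Flt3 (-3.73), while on the leukocyte scale 3 were lower and 2 higher (median 0.19). The remaining lists moved less uniformly, with 2 of 4 B cell genes, 3 of 9 mast cell and basophil genes, 1 of 4 melanocyte genes and 1 of 5 erythroid genes lower and none of them higher, against 20.6% of all genes lower. None of them was lower on the leukocyte scale, and 3 B cell, 2 mast cell and basophil, 4 melanocyte and 0 erythroid genes were higher. Langerhans cell genes were higher for 3 of 4, muscle genes for 1 of 5 and neutrophil genes for 2 of 6 with 1 lower, against 24.2% of all genes, and on the leukocyte scale all members tested of these 3 lists were higher. S100a9, which keratinocytes also make, was among the neutrophil genes higher under TMM, and Epcam, among the Langerhans cell genes higher, is on the keratinocyte list as well. What part these other cells have in the results that follow was not tested, and their levels are given beside the gene groups they touch.

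**Figure D1:**
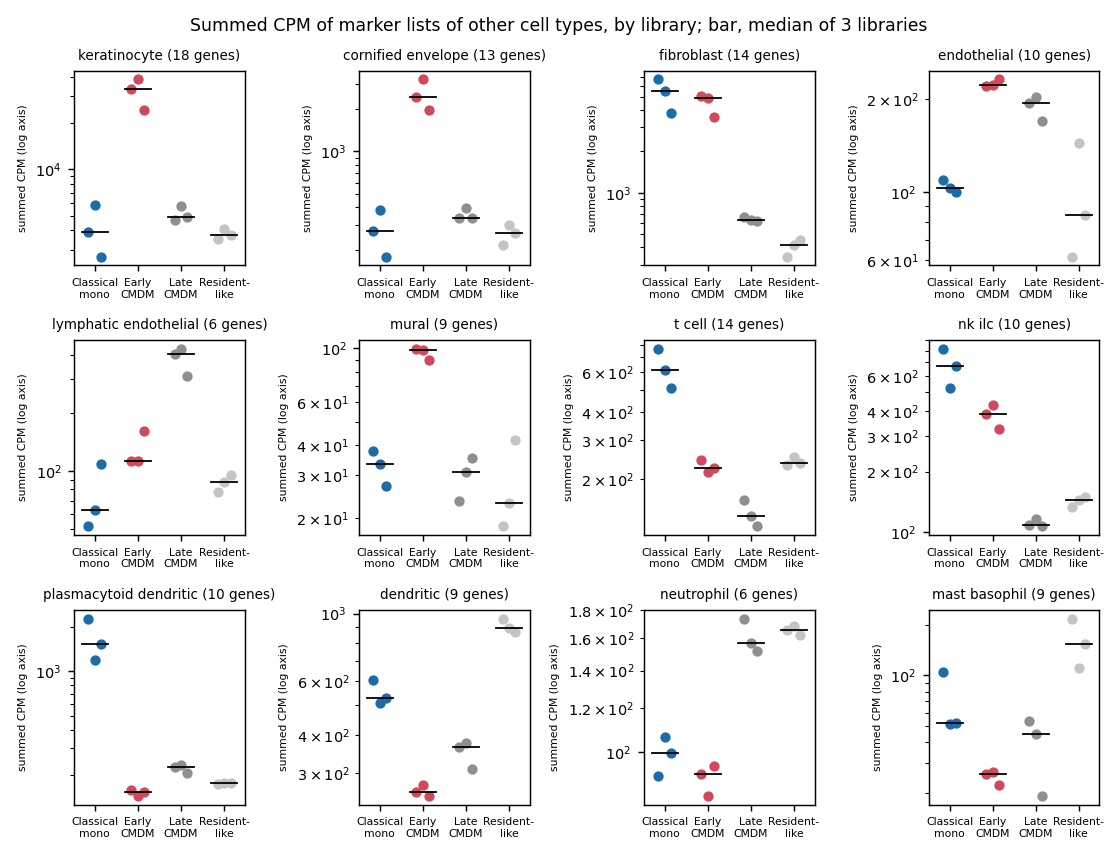
Summed CPM (log axis, not starting at 0) of 12 marker lists in each of the 12 libraries by fraction, each dot a library and the bar the median of 3 libraries. The early CMDM libraries hold 24364 to 38507 CPM of keratinocyte genes against 2700.2 to 5819 CPM in classical monocytes, while the classical monocyte libraries lead in T cell, NK cell and plasmacytoid dendritic cell genes. The mural cell and plasmacytoid dendritic cell lists were chosen after values were seen.

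**Figure D2:**
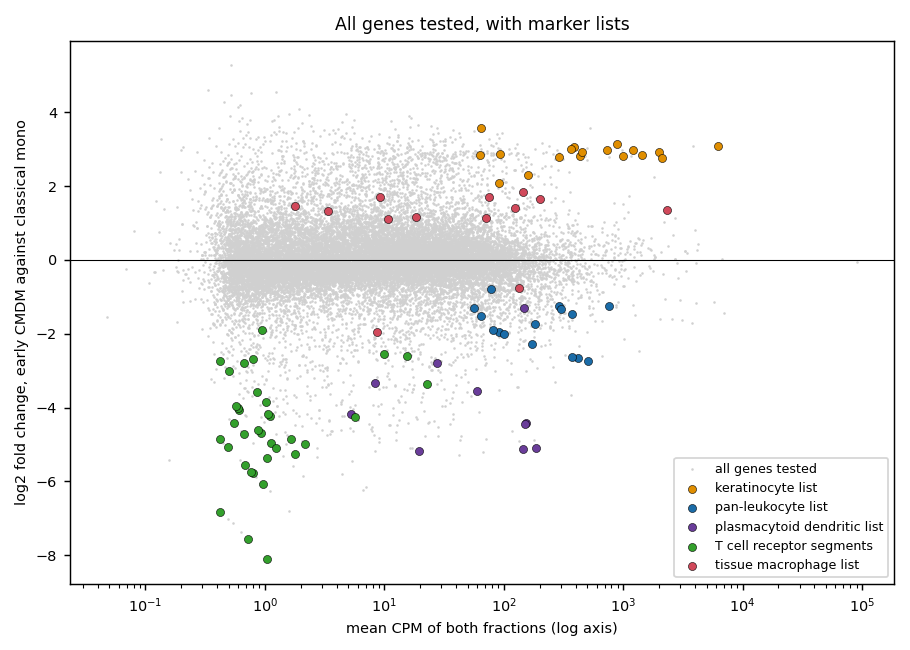
Log2 fold change (early CMDM minus classical monocyte, TMM) of all 22118 genes tested against their mean CPM in both fractions (log axis), with 5 lists in colour. The keratinocyte list lies between 2.09 and 3.59, the pan-leukocyte list between -2.74 and -0.80, and the plasmacytoid dendritic cell list between -5.17 and -1.29. The plasmacytoid dendritic cell and tissue macrophage lists were chosen after values were seen. On the leukocyte scale every gene of the plot lies higher by about 1.84.

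Monocyte genes were lower in early CMDMs for 12 of 14 members, with 0 higher and a median of -2.00, while on the leukocyte scale 6 were lower and 5 higher (median -0.17). Ly6c2, among the members lower under TMM, is tied to the sort. Plac8, a gene of young myeloid and lymphoid cells (chromosome 5, 100553725 to 100572245, minus strand), was at 762, 833 and 458 CPM in classical monocytes and at 55.0, 43.3 and 62.7 CPM in early CMDMs. No early CMDM library came near a classical monocyte library, and the log2 fold change of Plac8 was -3.67 ± 0.25 (adjusted p = 4.92e-08, edgeR). Ifitm6, a myeloid member of the interferon-induced transmembrane family, fell by 3.86 (SE 0.45). Both also fell on the leukocyte scale, by 1.87 and 2.03. Trem1, a receptor that amplifies inflammation in monocytes and neutrophils, fell by 3.44 ± 0.19 and fell again, by 0.64, in late CMDMs. Plac8 is also expressed by T cells and plasmacytoid dendritic cells, whose markers fell with it. Ccr2, the chemokine receptor that brings monocytes into tissue, was at 363, 355 and 453 CPM in classical monocytes and at 120, 101.2 and 165 CPM in early CMDMs. Its log2 fold change was -1.60 ± 0.15, close to the median of the pan-leukocyte genes, and on the leukocyte scale it was 0.20 and not called. Fn1, fibronectin, fell by 1.01 under TMM but rose by 0.83 on the leukocyte scale, so its direction depends on the scale.

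Macrophage genes rose for 9 of 22 members and fell for 1, with a median of 0.39, and on the leukocyte scale for all 22 (median 2.22, against 1.82 over all genes). Maf, which encodes the transcription factor c-Maf of mature tissue macrophages (chromosome 8, 115682942 to 115707794, minus strand), was at 67.2, 83.8 and 82.0 CPM in classical monocytes and at 258, 239 and 267 CPM in early CMDMs. The early CMDM libraries were alike and well above the classical ones, and the log2 fold change of Maf was 1.71 ± 0.10 (adjusted p = 3.33e-09, edgeR), with a further 0.48 in late CMDMs. Gas6, the bridging ligand by which macrophages bind dying cells, rose by 1.51 ± 0.10, and C1qb, a chain of the complement component C1q, by 1.09 ± 0.20. Adgre1, which encodes F4/80, and Cd68 were not called, with log2 fold changes of 0.03 and -0.29, although Cd68 was called lower without early CMDM library 3 (-0.55). Fcgr1, the high-affinity IgG receptor CD64, was the member that fell, by 0.81 ± 0.24, but it lost its call without classical monocyte library 3 (-0.50) or early CMDM library 2 (-0.58), and it rose by 0.99 on the leukocyte scale. Over all genes, 24.2% rose and 20.6% fell.

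A second macrophage list, of genes known from long-lived tissue macrophages and chosen after values were seen, held 11 of 13 members higher and 2 lower (median 1.34 under TMM and 3.19 on the leukocyte scale). Folr2, a folate receptor, rose by 1.71 ± 0.22, Cbr2, a carbonyl reductase, by 1.85 ± 0.17, and Igf1, a growth factor of repair, by 1.41 ± 0.18. Selenop, which carries selenium out of the cell, was at 1185, 1198 and 1574 CPM in classical monocytes and at 3405, 2338 and 4290 CPM in early CMDMs. Folr2, Cbr2, Igf1 and Selenop were all called higher again in late than in early CMDMs, by 1.67, 1.19, 1.25 and 1.42. The members that fell were Timd4, a receptor for phosphatidylserine (-1.95 ± 0.22), and F13a1, the A chain of coagulation factor XIII (-0.76 ± 0.22). On the leukocyte scale Timd4 was at -0.13 and not called, and F13a1 rose by 1.07. Under TMM F13a1 lost its call without classical monocyte library 2 (-0.55) or early CMDM library 2 (-0.64).

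Of the 6 genes that the study names as markers of anti-inflammatory macrophages, 3 were called higher (Cd163, Retnla, Mrc1), 2 lower (Il10, Hilpda) and Arg1 not, with a median of 0.84. On the leukocyte scale all 6 were higher, as were 20353 of the 22118 genes tested. Cd163, the scavenger receptor for haemoglobin bound to haptoglobin (chromosome 6, 124304656 to 124330527, plus strand), was at 91.0, 93.7 and 106 CPM in classical monocytes and at 353, 308 and 538 CPM in early CMDMs. Every early CMDM library was above every classical one, and the log2 fold change was 2.05 ± 0.19 (adjusted p = 4.44e-07, edgeR), with late CMDMs at a mean of 1015 CPM. Mrc1, the mannose receptor, rose by 0.78 ± 0.19. Arg1, arginase 1, was at 121, 108 and 388 CPM in classical monocytes and at 320, 329 and 492 CPM in early CMDMs. Classical monocyte library 3 lay above early CMDM libraries 1 and 2, and the log2 fold change of 0.89 ± 0.45 was not called (adjusted p = 0.132, edgeR). Without classical monocyte library 3, Arg1 was called, at 1.74, and the median of the 6 genes was 1.39. Il10, the anti-inflammatory cytokine, was at 24.3, 24.3 and 41.0 CPM in classical monocytes and at 19.5, 19.5 and 21.5 CPM in early CMDMs, a fall of 0.57 that was not called without classical monocyte library 3 (-0.27), early CMDM library 1 (-0.53) or early CMDM library 2 (-0.53), and that became a rise of 1.28 on the leukocyte scale. Hilpda, a regulator of lipid droplets, fell by 0.66 under TMM and rose by 1.15 on the leukocyte scale.

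Retnla, which encodes RELMα (chromosome 16, 48842551 to 48844461, plus strand), was at 106, 127 and 105 CPM in classical monocytes and at 470, 411 and 440 CPM in early CMDMs. The fractions were far apart and each was tight, and the log2 fold change was 1.96 with an SE of 0.47 (adjusted p = 0.00617, edgeR). The fit shares 1 spread per gene over all 4 fractions, and Retnla ran from 738 to 1543 CPM among late CMDMs and from 533 to 2272 CPM among resident-like macrophages. Its upstream sequence is shown as the second STAT6-type match in a gene that rose. It lies at chr16:48842419-48842518, plus strand, GRCm38.p6 of RefSeq, with the match in capitals beginning 145 bases before the start.
Retnla: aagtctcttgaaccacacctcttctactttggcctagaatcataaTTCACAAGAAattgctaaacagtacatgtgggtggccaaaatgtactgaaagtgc

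The genes of IL-4 signalling were examined next, from receptor to targets. Of 8 receptor chain and kinase genes 2 rose and 5 fell (median -0.49), against 24.2% and 20.6% of all genes. On the leukocyte scale 7 rose (median 1.34), against 20353 of all 22118 genes tested (median 1.82). Il13ra1, which pairs with IL-4Rα to bind IL-4 and IL-13, was at 81.5, 91.8 and 83.0 CPM in classical monocytes and at 128, 127 and 107 CPM in early CMDMs, a rise of 0.50 ± 0.11, and fell by 1.08 from early to late CMDMs. Il13ra2, the decoy receptor for IL-13, was at 0.616, 0.495 and 1.06 CPM and at 2.23, 2.34 and 2.60 CPM and rose by 1.71 ± 0.27. Il2rg, the common γ chain, which lymphocytes also use, fell from 126, 115 and 139 CPM to 37.4, 33.96 and 50.1 CPM, a log2 fold change of -1.65 ± 0.14, and was 0.16 and not called on the leukocyte scale. Jak3, Tyk2 and Stat6, the kinases and the transcription factor of the pathway, fell by 1.00, 0.87 and 0.52 under TMM. They were above 0 on the leukocyte scale, but below the median of 1.82 over all genes tested there. Il4ra, which encodes IL-4Rα, was at -0.46 ± 0.16 and lost its call without classical monocyte library 3 (-0.26), early CMDM library 1 (-0.38) or early CMDM library 2 (-0.35).

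Of 26 genes known to respond to IL-4 in macrophages, 9 rose and 8 fell (median 0.39), against 24.2% and 20.6% of all genes. On the leukocyte scale 25 rose (median 2.22), against 20353 of all 22118 genes tested (median 1.82). Besides Retnla, Mrc1 and Pdcd1lg2, those that rose included Egr2, a transcription factor downstream of STAT6, which was at 36.7, 39.0 and 30.2 CPM in classical monocytes and at 109, 122 and 83.8 CPM in early CMDMs. Pdcd1lg2 encodes a marker of the gate, so that its rise is tied to the sort. The largest rises of the list were of Cdh1, E-cadherin (2.29 ± 0.18), and Ptgs1, cyclooxygenase 1 (2.20 ± 0.15). Cdh1 is on the keratinocyte list as well, and both genes were highest in early CMDM library 2 and lowest in early CMDM library 3, as was Krt10. Both fell from early to late CMDMs, Cdh1 by 1.73 and Ptgs1 by 2.29 on the log2 scale. In resident-like macrophages, which were low in keratinocyte genes, Ptgs1 averaged 127 CPM, against 109 CPM in early CMDMs. Cdh1 averaged 106 CPM there, against 266 CPM in early CMDMs and 54.3 CPM in classical monocytes. The source of both transcripts was not tested. The largest falls were of Tgm2, transglutaminase 2 (-1.55 ± 0.28), and Irf4, a transcription factor of alternatively activated macrophages and dendritic cells (-1.33 ± 0.13), both of which were above 0 on the leukocyte scale (0.27 and 0.51). Ccl17, a chemokine for T cells, was low in both fractions and not called. Of the 18 genes of this list with a promoter in the RefSeq table, 4 (22.22%) held TTCNNNNGAA within 250 bases before the start, against 6.757% of 27025 gene symbols. The share was 21.74% (5 of 23) among the type I interferon genes and 3 of 20 carried it among the interferon-γ genes described further on. Those of the IL-4 list were Pdcd1lg2, whose rise is tied to the sort, Retnla, which rose too, and Ccl17 and Tfec, which were not called. The motif reads alike on both strands, a match is no evidence of binding, and matches of this and the interferon motif used here were counted separately even where they overlap.

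**Figure D3:**
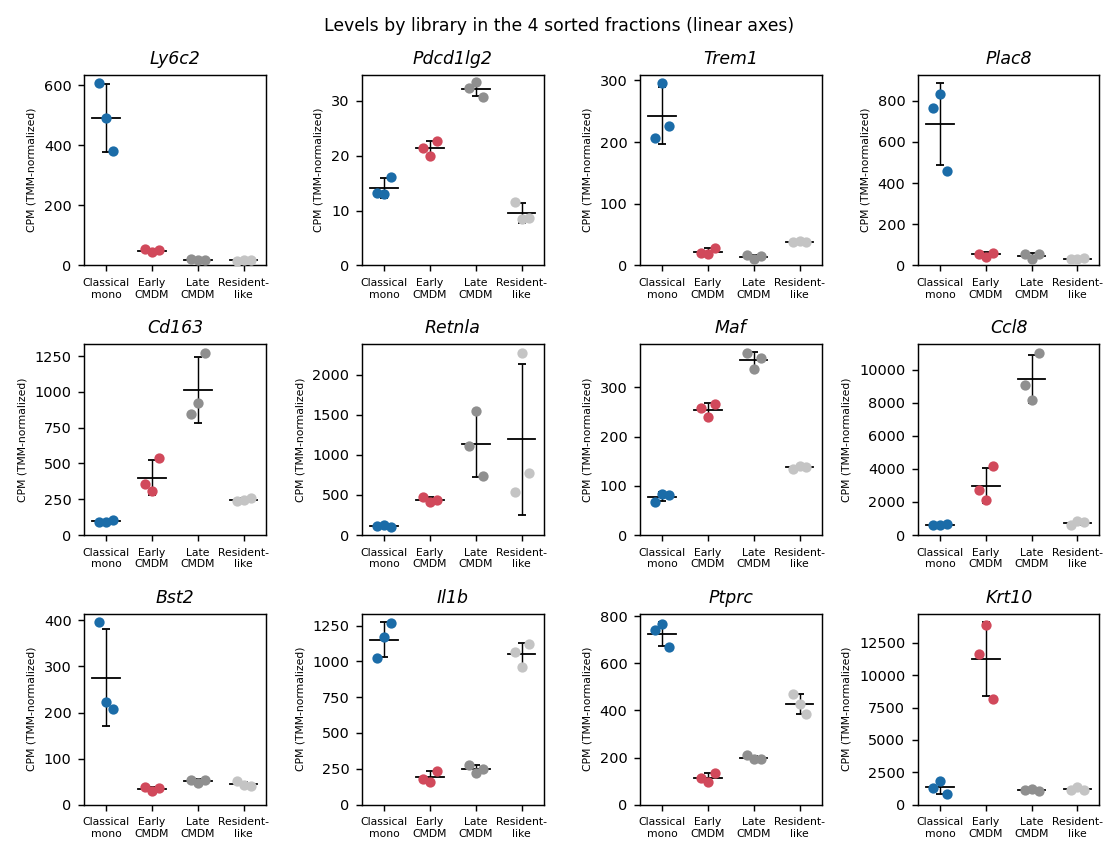
CPM after TMM normalization (linear axes from 0) of 12 genes in each library of the 4 fractions, with dots for libraries and bars for mean ± SD of 3 libraries. Between classical monocytes and early CMDMs Ly6c2, Trem1, Plac8, Bst2, Il1b and Ptprc fell and Pdcd1lg2, Cd163, Retnla, Maf, Ccl8 and Krt10 rose, and Krt10 alone of these was back near the classical level in late CMDMs, at a mean of 1120 CPM. On the leukocyte scale, whose upward shift leaves genes that rose no room to reverse, the same 12 genes kept these directions.

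Of 13 CC chemokines 4 rose and 3 fell (median 0.25), near the 24.2% and 20.6% of all genes. On the leukocyte scale 11 rose and 1 fell (median 2.06), against 20353 and 432 of all 22118 genes tested (median 1.82). Ccl8, a ligand of CCR8 made by tissue macrophages in allergic skin (chromosome 11, 82115185 to 82116799, plus strand), was at 615, 635 and 657 CPM in classical monocytes and at 2721, 2094 and 4169 CPM in early CMDMs. The classical libraries were nearly equal and the early ones spread over a wide range above them, and the log2 fold change was 2.24 ± 0.21 (adjusted p = 4.32e-07, edgeR). In late CMDMs Ccl8 averaged 9436 CPM, a further 1.66, and in resident-like macrophages 738 CPM. Ccl12 and Ccl7, ligands of CCR2 encoded beside Ccl8, rose by 1.53 ± 0.25 and 0.70 ± 0.18. Ccl5, which T and NK cells make in bulk, fell from 308, 206 and 191 CPM to 28.5, 14.8 and 21.2 CPM, by 3.45 under TMM and by 1.63 on the leukocyte scale. Ccl4 and Ccl3, chemokines of activated macrophages and lymphocytes, were at -1.56 ± 0.31 and -0.47 ± 0.17 under TMM and at 0.20 and 1.33 on the leukocyte scale, and Ccl3 kept its call in 2 of 6 fits that left out a library, those without classical monocyte library 3 or early CMDM library 3. Of 9 chemokine receptors 6 fell and 0 rose (median -0.99). On the leukocyte scale 6 rose and 2 fell, against 20353 and 432 of all 22118 genes tested. Those that fell on both scales were Cx3cr1, the fractalkine receptor of patrolling monocytes (-2.99 ± 0.27), and Ccr7, which guides dendritic cells to lymph nodes (-2.27 ± 0.15).

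Other genes that rose in early CMDMs and again in late CMDMs may be read beside these. In the comparison of late with early CMDMs, which shares the early CMDM libraries, 14.4% of all genes were called higher and 17.5% lower. Rnase2a, an eosinophil-type ribonuclease with close copies in its family, was at 57.9, 56.5 and 62.7 CPM in classical monocytes and at 275, 223 and 394 CPM in early CMDMs, with means of 739 CPM among late CMDMs and 76.0 CPM among resident-like macrophages. Its log2 fold changes were 2.33 ± 0.20 from classical monocytes to early CMDMs and 1.31 from early to late CMDMs. In Cd163, Ccl8, Rnase2a, Folr2, Selenop, Igf1 and Cbr2 early CMDM library 3 was the highest and library 2 the lowest. The keratinocyte sum ran in the opposite order, highest in library 2 and lowest in library 3, and the part of these transcripts in the spread was not tested.

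Interferon-stimulated genes were lower in early CMDMs under TMM, with 26 of 33 type I genes called lower, 0 higher and a median of -0.95, but on the leukocyte scale 21 were higher and 1 lower (median 0.84). The median of all genes on that scale was 1.82. Since the scale shifts all genes up by about 1.84, the place of these genes below that median restates the TMM result and is no second test. Bst2, tetherin, which holds budding virus at the membrane (chromosome 8, 71534255 to 71537456, minus strand), was at 397, 223 and 208 CPM in classical monocytes and at 37.0, 29.3 and 36.2 CPM in early CMDMs. The fractions did not overlap, the log2 fold change was -3.01 ± 0.21 (adjusted p = 5.55e-08, edgeR), and Bst2 was the 1 member that also fell on the leukocyte scale, by 1.20. Bst2 is abundant in plasmacytoid dendritic cells, and classical monocyte library 1, the highest in Siglech and Spib, was also the highest in Bst2. Trim30a, an inhibitor of NF-κB signalling, was at 107, 74.7 and 73.2 CPM and at 30.4, 16.8 and 29.3 CPM, or -1.73 ± 0.20 under TMM and 0.06 on the leukocyte scale. Irf7, the transcription factor that amplifies interferon production, was at 224, 114 and 196 CPM and at 57.8, 27.4 and 52.1 CPM, with library 2 the lowest in both fractions. The same order within each fraction was seen in Mx1 (44.6, 20.9 and 38.2 CPM in classical monocytes against 16.3, 6.77 and 13.4 CPM). Of the 5 interferon genes the study names, Mx1 and Ifitm6 were called lower, whereas Ifit1, Ifit2 and Ifit3 overlapped between the fractions, with log2 fold changes of -0.44 ± 0.41, -0.84 ± 0.56 and -0.95 ± 0.48 (Ifit3 shares reads with Ifit3b). Without classical monocyte library 2, Ifit3 was called, at -1.28.

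The interferon-stimulated response element, searched as GAAANNGAAA on both strands, was in the 250 bases before the start of 11 of 23 type I genes with a promoter in the RefSeq table (47.83%), against 3.463% of 27025 gene symbols. It is printed for the pair of type I genes with the motif that fell most under TMM, Bst2 at chr8:71537542-71537641 and Trim30a at chr7:104465194-104465274, both on the minus strand of GRCm38.p6. Capitals mark the match, which begins 124 bases before the start in Bst2 and 36 in Trim30a, and in Trim30a, for which the table holds 2 promoters, it reads as the reverse complement.
Bst2: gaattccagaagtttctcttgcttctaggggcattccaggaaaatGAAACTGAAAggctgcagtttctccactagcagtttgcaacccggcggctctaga
Trim30a: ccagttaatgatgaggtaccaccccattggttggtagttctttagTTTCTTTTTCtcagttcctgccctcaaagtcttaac
The motif did not part the genes that fell from the others, since Ifit1, Ifit3, Ifit3b and Rsad2, which hold it too, were not called.

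Genes induced by interferon-γ behaved alike, with 19 of 25 lower, 0 higher and a median of -0.96 under TMM, and with 20 higher and 1 lower on the leukocyte scale (median 0.85). Irf8, the transcription factor of monocyte and dendritic cell progenitors, was at 456, 296 and 421 CPM in classical monocytes and at 83.2, 67.0 and 113 CPM in early CMDMs and fell on both scales, by 2.16 (SE 0.19) and 0.37. Ifi47 and Gbp5, GTPases against intracellular pathogens, fell by 1.71 and 1.70 under TMM and were at 0.11 and 0.12, not called, on the leukocyte scale. Ifng itself had 3 counts or fewer in each early CMDM library, as given above. Psmb8, a subunit of the immunoproteasome, fell by 1.14 under TMM and rose by 0.69 on the leukocyte scale.

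All 10 genes of MHC class II presentation were lower in early CMDMs (median -1.60), while on the leukocyte scale 1 was lower, 1 higher and 8 not called (median 0.24). Cd74, the invariant chain that escorts class II molecules, was at 9607, 8642 and 12298 CPM in classical monocytes and at 3640, 3620 and 4015 CPM in early CMDMs, falling by 1.44 ± 0.15 in log2 units, and Ciita, the class II transactivator, fell by 1.57 ± 0.14. Late CMDMs were close to early CMDMs in Cd74 and resident-like macrophages far higher, with means of 4720.1 and 32467 CPM. H2-Oa, a chain of the peptide-loading regulator H2-O of B cells and dendritic cells, was the member lower on both scales (-2.91 ± 0.35 and -1.09).

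Among 19 inflammatory cytokines and regulators 13 fell and 2 rose (median -1.01). On the leukocyte scale 13 rose and 1 fell (median 0.81), against 20353 and 432 of all 22118 genes tested (median 1.82). Il1b, which encodes the cytokine IL-1β, was at 1022, 1168 and 1269 CPM in classical monocytes and at 178, 156 and 238 CPM in early CMDMs. The fractions lay far apart, the log2 fold change was -2.60 ± 0.15 (adjusted p = 2.75e-09, edgeR), and Il1b was the 1 member lower on the leukocyte scale, by 0.79. Ptgs2, cyclooxygenase 2, and Cxcl3, a neutrophil chemokine, were at -1.91 ± 0.25 and -1.73 ± 0.20 under TMM and at -0.07 and 0.09, not called, on the leukocyte scale. The members that rose were Il6 (0.77 ± 0.25), which skin stroma and keratinocytes also make, and Nfkbiz, an inducible IκB protein (0.27 ± 0.08). Il6 lost its call without early CMDM library 1 (0.70) or 2 (0.78).

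Of 20 transcription factors of monocytes and macrophages 5 rose and 9 fell (median -0.39), against 24.2% and 20.6% of all genes. On the leukocyte scale 19 rose (median 1.44), against 20353 of all 22118 genes tested (median 1.82). Besides Maf and Egr2, Cebpa, which drives myeloid differentiation and is also used by epidermis, rose from 100, 104 and 121 CPM to 245, 257 and 244 CPM (1.19 ± 0.11). Spi1, which encodes PU.1, fell by 1.04 ± 0.14 under TMM and rose by 0.77 on the leukocyte scale. Irf8 was the member that fell on both.

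**Figure D4:**
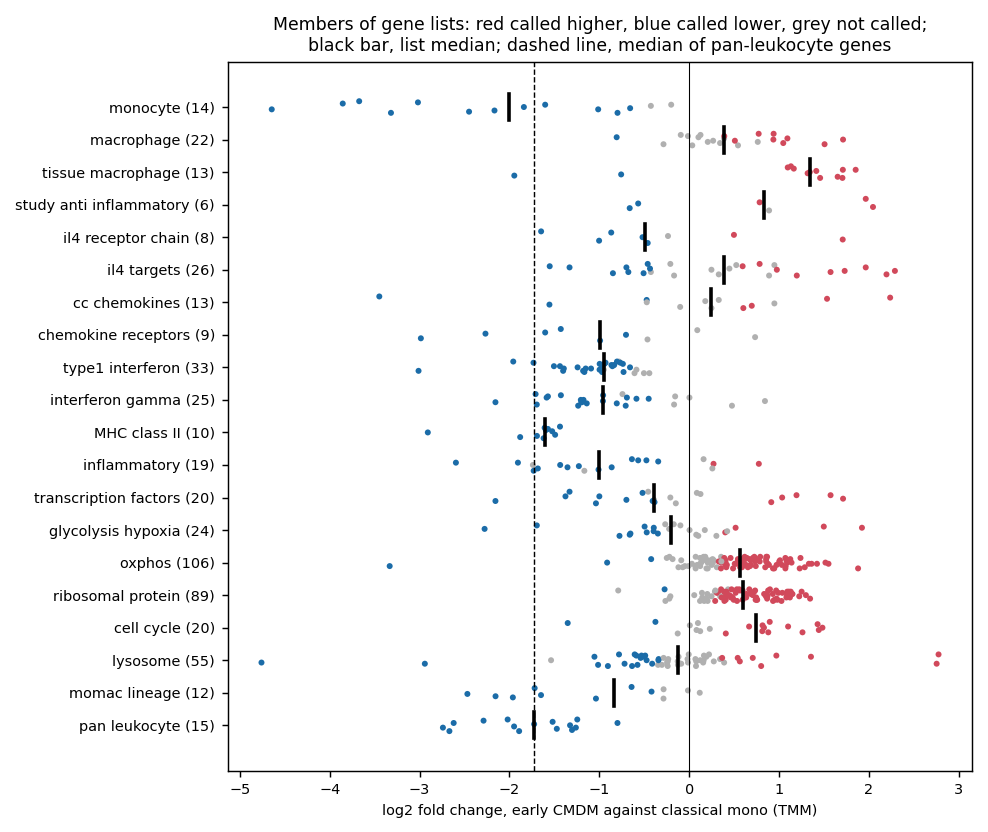
Log2 fold change (early CMDM minus classical monocyte, TMM) of each tested member of 20 gene lists, with red for genes called higher, blue for lower and grey for not called, the black bar at the list median and the dashed line at the pan-leukocyte median of -1.73. Macrophage genes have a median of 0.39 and monocyte genes of -2.00, while tissue macrophage genes, a list chosen after values were seen, have one of 1.34. On the leukocyte scale all points move right by about 1.84, so that the lists between the dashed line and 0 change sign.

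Among housekeeping groups, respiratory chain and ATP synthase genes were higher for 70 of 106 and lower for 3 (median 0.56), and cytosolic ribosomal proteins for 69 of 89 with 1 lower (median 0.59, with reads shared among pseudogenes). Both shares exceed the 24.2% of all genes. Rplp1, a stalk protein of the large subunit, was at 677, 713 and 513 CPM in classical monocytes and at 1496, 1789.8 and 1397 CPM in early CMDMs. Early CMDM library 2 was the highest in both Rplp1 and keratin, an order picked after values were seen. What part epidermal RNA has in the ribosomal protein genes was not tested. Rplp1 fell by 0.51 from early to late CMDMs. The ribosomal protein list had a median of -0.51 in that step and of 0.10 from classical monocytes to late CMDMs. The respiratory chain list did not fall back, with medians of 0.06 and 0.66. Ndufa5, a subunit of complex I, rose by 1.52 ± 0.18, and Cox6a2, an isoform of a cytochrome oxidase subunit that is also on the plasmacytoid dendritic cell list, fell by 3.33 ± 0.32. Ribosome biogenesis genes were higher for 15 of 48 and lower for 6 (median 0.19), and proteasome genes for 7 and 4 of 39 (median 0.05). Lysosomal genes were higher for 9 of 55 and lower for 19 (median -0.13), but 52 were higher on the leukocyte scale. There all 48 ribosome biogenesis, 38 proteasome, 105 respiratory chain and 88 ribosomal protein genes were higher too, against 20353 of all 22118 genes tested.

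Glycolysis and hypoxia genes were higher for 4 of 24 and lower for 10 (median -0.20), but 22 were higher and 1 lower on the leukocyte scale. Over all 22118 genes tested, 20353 were higher and 432 lower on that scale. The glycolysis and hypoxia gene lower on both scales was Slc16a3, the lactate exporter, at 121, 165 and 233 CPM in classical monocytes and 32.0, 28.7 and 46.4 CPM in early CMDMs (-2.28 ± 0.22 and -0.47). Vegfa, the growth factor of vessels, fell by 1.70 under TMM and was at 0.13, not called, on the leukocyte scale. Adm, adrenomedullin, and Egln3, an oxygen-sensing hydroxylase, rose by 1.92 ± 0.20 and 1.498 ± 0.19, and in late CMDMs they averaged 6.25 and 5.14 CPM, near or below their classical level. Of 20 cell cycle genes 12 rose and 2 fell (median 0.74). All 20 rose on the leukocyte scale, as did most genes tested. The largest rises under TMM were of Cdc20, the activator of the anaphase-promoting complex (1.48 ± 0.19), and Ccnb1, cyclin B1 (1.44 ± 0.22), which were at 10.7 to 12.4 and 5.64 to 6.68 CPM in early CMDMs. Cenpa, the centromeric histone, fell by 1.35 under TMM and rose by 0.45 on the leukocyte scale.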

How the data were processed

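Bulk RNA-seq of 12 libraries (4 fractions, 3 each) was used, and the 3 early CMDM and 3 classical monocyte libraries were compared. The deposited table holds unnormalized counts for each gene symbol. Per the labels and the methods of the study, the authors trimmed reads with cutadapt 4.1, mapped them to reference RNA of GRCm38 with Bowtie2 2.4.5 and counted them by gene, so that reads of paralogs can be split. All 12 columns were used. The total counts and the limit of 3 counts are given with the results.

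edgeR 4.0.16 (R 4.3.3) was run on all 12 libraries with TMM, filterByExpr by fraction and robust quasi-likelihood fits, 1 coefficient per fraction, with Benjamini-Hochberg adjustment at 0.05. The study names TCC for this step, which was not used here. SEs were derived from the F statistic of each gene. Between replicates, chi-square per degree of freedom was 4.63 to 24.7, far above sampling noise, so every library counts once. On simulated counts of 21657 genes, 172 of 200 genes changed 3-fold (86%) were recovered, with 8 unchanged genes called. Those 200 genes were raised and lowered in equal number, whereas 44.9% of the genes were called in the data. The simulation therefore does not test the TMM assumption that most genes do not change.

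The comparison, the 39 gene lists and the alternatives were chosen with earlier results of these data known, and 4 further lists after the values were seen. A list is described by its counts and median, with no set test. Genes named are the sort markers and genes the study names, up to 3 called members per list and direction with the largest change, the 10 largest rises and falls without overlap and with at least 5 CPM, and those that moved further in late CMDMs, together with Csf1r, Cd68, Spi1, Lyz2 and other members and library orders picked after their values were seen. Some genes that met this rule are not reported here. Alternatives were DESeq2 1.42.0, RLE and library-size scaling, TMM without the genes called (DEGES, 3 rounds), leukocyte scaling, other filters and thresholds, fits of the 6 libraries alone, a replicate block and leaving out each library or the genes of other cell types. Gene positions come from GENCODE M21, promoters from RefSeq (GRCm38.p6).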

Additional observations from a re-analysis of the deposited data

How the results depend on the processing

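Leukocyte scaling moved every count of calls and 33 of the 33 list medians examined. It gave 20785 calls, 20353 higher and 432 lower, against 9925, 5363 and 4562 under TMM. It reversed the median of the lists IL-4 receptor chain (1.34), type I interferon (0.84), interferon-γ (0.85), MHC class II (0.24), inflammatory (0.81), chemokine receptors (0.81), transcription factors (1.44), glycolysis and hypoxia (1.66), pan leukocyte (0.087), fibroblast (1.58), dendritic (0.19), lysosome (1.69) and mononuclear phagocyte (0.95). It moved, without reversing, those of the lists monocyte (-0.17), macrophage (2.22), the anti-inflammatory list of the study (2.65), IL-4 targets (2.22), CC chemokines (2.06), cell cycle (2.59), keratinocyte (4.79), cornified envelope (5.06), endothelial (3.48), lymphatic endothelial (3.66), T cell (-0.84), NK and innate lymphoid (-2.15), respiratory chain (2.401), ribosomal protein (2.46), ribosome biogenesis (2.06), proteasome (1.89), T cell receptor segments (-2.89), plasmacytoid dendritic cell (-2.51), mural cell (4.04) and tissue macrophage (3.19). It also reversed the log2 fold change of 36 genes, Fcgr1 (0.99), Itgam (0.65), Ccr2 (0.20), Fn1 (0.83), Csf1r (1.79), Cd68 (1.502), Spi1 (0.77), Lyz2 (0.11), Il10 (1.28), Hilpda (1.15), F13a1 (1.07), Il4ra (1.35), Il2rg (0.16), Jak3 (0.84), Tyk2 (0.96), Stat6 (1.32), Irf4 (0.51), Tgm2 (0.27), Ccl4 (0.20), Ccl3 (1.33), Trim30a (0.062), Mx1 (0.29), Ifit1 (1.37), Ifit2 (0.94), Ifit3 (0.81), Ifi47 (0.11), Gbp5 (0.12), Psmb8 (0.69), H2-DMb1 (0.15), Ciita (0.27), Cd74 (0.41), Cxcl3 (0.091), Vegfa (0.13), Slc2a1 (1.09), Cenpa (0.45) and Col1a1 (1.64).

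No scaling other than leukocyte scaling reversed a list median, and the 6 counts of calls that moved were those under leukocyte scaling and under a log2 fold change of at least 1, which left 4427 calls, 2518 higher and 1909 lower. TMM without the genes called (DEGES) shifted the median gene by 0.08, put 61.15% of the calls higher and gave a cell cycle median of 0.82. Leaving out 1 library gave medians of 0.61 to 1.39 (the anti-inflammatory list of the study), 0.61 to 0.76 (cell cycle), -4.66 to -4.24 (T cell receptor segments), 1.81 to 2.35 (mural cell). Of genes not called, Csf1r was at 0.068 under DEGES and 0.0022 with no filter, and across the fits without 1 library it ran from -0.22 to 0.27 and Adgre1 from -0.12 to 0.18. For all other genes and lists outside leukocyte scaling the direction held. Without 1 library the calls numbered 8477 to 9466, and DESeq2 gave 9498. A replicate block gave 10322 calls, 5543 higher and 4779 lower. Same-numbered libraries of both fractions correlated in their deviations at 0.0763, 0.193 and 0.248, so that the numbers were not taken as pairs, although each early CMDM library correlated best with its own number. Under the block Arg1, Cd68 and Ifit2 were called, at 1.06, -0.31 and -0.80. The causes of these shifts were not tested, except that leukocyte scaling rests by construction on 15 genes that fell together. At 3 libraries, changes below a few counts per library could not be resolved.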

Other observations

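Several genes outside the lists rose from classical monocytes to early CMDMs and again from early to late CMDMs, with the early CMDM libraries shared by both comparisons. C6, a component of the complement attack complex, averaged 1.48, 8.77 and 21.2 CPM in classical monocytes, early CMDMs and late CMDMs, with log2 fold changes of 2.56 ± 0.26 (SE) and 1.27. Defb6, a β-defensin, averaged 2.54, 17.0 and 31.2 CPM in the same order. Avpr1a, a vasopressin receptor, averaged 1.94, 8.31 and 17.6 CPM and Unc13b, a priming factor of vesicle release, 3.88, 14.9 and 29.3 CPM. C6 and Defb6 were at 2.11 and 2.85 CPM in resident-like macrophages, and Unc13b was at 17.4 CPM.

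Others fell at both steps. Hp, haptoglobin, averaged 150.3, 18.5 and 7.49 CPM in classical monocytes, early CMDMs and late CMDMs, with log2 fold changes of -3.02 ± 0.22 and -1.31. Cxcr6, a chemokine receptor of T and NK cells, averaged 8.24, 0.544 and 0.192 CPM in the same order, Tnfsf8, the CD30 ligand, 7.54, 1.07 and 0.307 CPM, and Adgrg5, an adhesion receptor, 38.6, 2.95 and 2.03 CPM. Sirpb1c, a receptor of the SIRP family, averaged 84.6, 9.99 and 6.43 CPM and was at 53.4 CPM in resident-like macrophages.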
